A study of Mus musculus with 12 samples.

Results

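The measurement described here is how the association of RNA with Thoc5, relative to its abundance in the cell, differed between passage 10 and passage 3 of cultured mouse vascular smooth muscle cells. Genes entered when they had at least 50 reads in each of 4 libraries, the Thoc5 precipitate and the input at both passages, and 8416 of 15352 listed genes did. For each, enrichment was the log2 ratio of Thoc5 precipitate to input in CPM, which is the reads of a gene scaled to a common library total, with 0.5 CPM added to both, and the change was enrichment at passage 10 minus enrichment at passage 3. The cells were primary cultures from the aorta of C57BL/6 mice aged 6 weeks, with no genetic alteration stated for the precipitation experiments, and passages count how often a culture was split and regrown. RNA was sequenced from material pulled down with an antibody against Thoc5 or Thoc2 and from an input taken without antibody, with 1 library of each at passage 10 and 1 of each at passage 3. A further experiment silenced Thoc5 with a short hairpin RNA (shThoc5) and compared it with a non-targeting hairpin (shNT), with 2 libraries each, in cells of passages 4 to 8 collected 4 days after infection. Chromatin immunoprecipitation libraries were not analysed here. The labels state neither how many mice were used nor whether the passages came from the same culture, and they name no control antibody.

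Thoc5 is a subunit of THO, a complex that is recruited to nascent transcripts and that, with the helicase Ddx39b and the adaptor Alyref, forms TREX, which hands spliced mRNA to the export receptor Nxf1. In mice, Thoc5 is required for the export of only a subset of mRNAs, among them immediate early and differentiation genes. Smooth muscle cells in culture are known to lose contractile markers and become proliferative and matrix-producing as they are passaged. In the inputs here, the median log2 difference between passage 10 and passage 3 was 0.66 for the contractile genes that entered. It was -0.24 for matrix genes and 1.93 for mitosis genes. A loss of contractile and a gain of matrix transcripts were thus not seen in these medians, with 1 input library per passage.

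The Thoc5 precipitates held 9364965 counted reads at passage 10 and 5975866 at passage 3, and the inputs held 19038973 and 36336141. Because each kind of library existed once, no difference between passages could be set against replicates and no p-value is given. The 95% intervals of single genes cover counting error only. Nuclear ribosomal RNA genes and mitochondrially encoded genes took unequal shares of the libraries, with 1.69% and 0.748% of the Thoc5 precipitate at passage 10 against 7.33% and 0.979% at passage 3. The inputs held 0.986% and 2.24% at passage 10 and 1.76% and 5.22% at passage 3. In the Thoc2 precipitates, ribosomal RNA took 0.927% at passage 10 and 19.2% at passage 3. Smooth muscle markers were abundant, with Acta2, Tagln, Cnn1, Myh11, Myl9, Lmod1 and Smtn summing to 7307 CPM in the input of passage 10 and 5003 CPM in that of passage 3, although Myh11 itself stood at 3.05 and 6.72 CPM. Input sums over 5 markers of other cell types were lower at passage 10 than at passage 3, with 17.3 against 152 CPM for macrophages, 64.6 against 190.2 CPM for endothelium and 161 against 1587 CPM for adventitial fibroblasts. The macrophage genes Ptprc and Adgre1 and the adventitial gene Clec3b had no listed reads at passage 10. In the Thoc5 precipitates the same sums were 14.8 against 188, 63.9 against 165 and 152 against 905 CPM. There Ly6a had 54.1 against 795 CPM and Pdgfra 94.6 against 90.5 CPM. Heart muscle markers summed to 46.4 CPM in the input of passage 10 and 7.46 CPM in that of passage 3, and to 33.5 and 29.6 CPM in the Thoc5 precipitates. Nearly all of this was Tnnt2 except in the precipitate of passage 3, where Tnnt2 had 13.2 CPM and Myh6, the cardiac myosin heavy chain, had 9.37 CPM against 0.303 CPM in its input. Below the read minimum, Ttn, Myl2 and Mybpc3, named after their values were seen, had 63, 40 and 38 reads in the precipitate of passage 3 and 13, 12 and 5 in its input, and at passage 10 none of them had listed reads in the precipitate. Other heart muscle genes below the minimum, also named after their values were seen, mostly stood above the input at passage 3. Their log2 enrichment there ran from 0.70 for Myl4 to 2.70 for Mb. The only ones below the input at passage 3 were Nppb at -2.78, Cox6a2 at -0.79 and Fabp3 at -0.49. The part of other cell types in the changes below was not tested, and in bulk RNA fewer cells of a type and less RNA per cell cannot be told apart.

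Among the genes that entered, Thoc5 enrichment was less spread at passage 10 than at passage 3, with 1 precipitate and 1 input each. The SD of enrichment across the 8416 genes was 0.566 at passage 10 and 0.958 at passage 3, and the median was 0.06 at passage 10 and 0.25 at passage 3. At least 2-fold enrichment was found for 438 genes (5.2%) at passage 10 and for 1829 genes (21.7%) at passage 3, of which 395 were enriched at both. The median change was -0.15, and the range ran from -5.66 to 2.52. A change of -1 or less, called lost here, was found for 898 genes (10.7%), and a change of 1 or more, called gained, for 174 genes (2.07%). With TMM scaling, which moves the median by 0.15, 644 genes were lost and 312 gained. The whole counting interval lay beyond the 2-fold limit for 417 of the lost and 48 of the gained genes.

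The read minimum equals 8.37 CPM in the Thoc5 precipitate of passage 3 but 1.38 CPM in its input. Genes below 8.37 CPM in that input could therefore enter only with a precipitate above input at passage 3. The SD and median at passage 3 and the counts of 2-fold enriched, lost and gained genes carry this limit. The part of the lower depth and higher ribosomal RNA share of the passage 3 precipitate in the spread was not tested. The change is a difference of enrichments, so lost genes start high and gained genes low by construction, and the next counts describe them only. Of the lost genes, 777 had been enriched at least 2-fold at passage 3, 105 still were at passage 10, and 269 (30.0%) stood below the input at passage 10. Of the gained genes, 171 of 174 were below the input at passage 3, and 3 reached 2-fold enrichment at passage 10, namely Zbtb18, Atp8b1 and A130040M12Rik, which are named for that after their values were seen. Both sides of the ratio moved. Of the lost genes, 592 had less Thoc5 precipitate CPM at passage 10 and 757 had more input CPM, and of the gained genes, 126 had more Thoc5 precipitate CPM and 128 had less input CPM. Because the spread of enrichment differed between passages, the place of a gene in the order of the 8416 is given beside its change, as a percentile in which 100 is the most enriched. Of the 842 genes in the top 10% at passage 3, 436 (51.8%) were also in the top 10% at passage 10, and 60 were below the median.

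**Figure D1:**
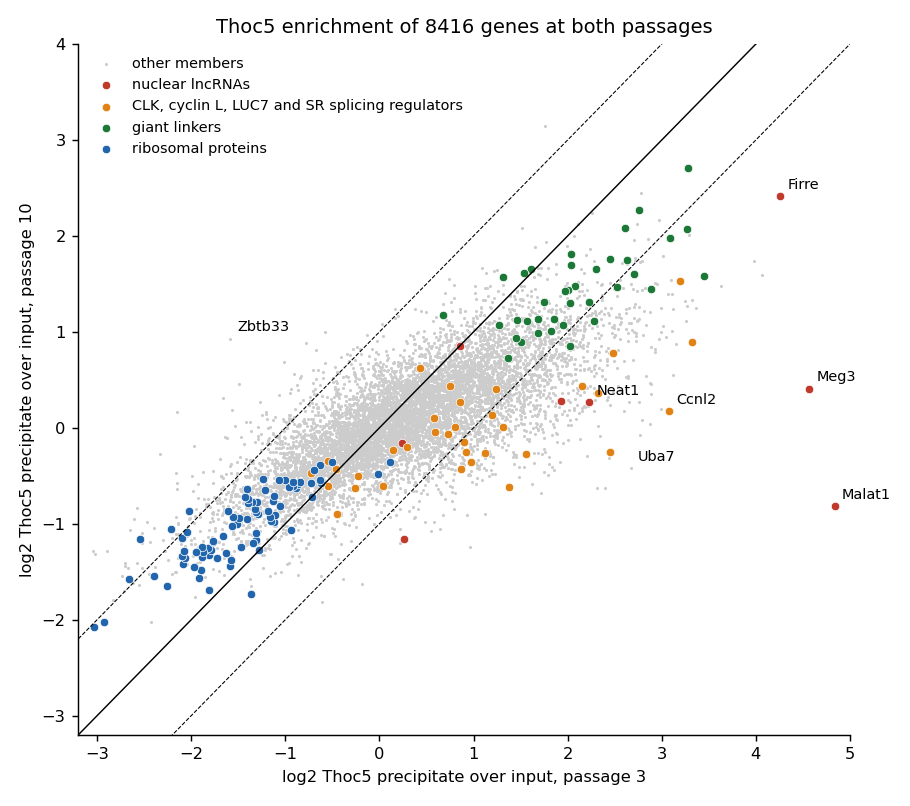
Thoc5 enrichment of the 8416 genes as the log2 ratio of Thoc5 precipitate to input CPM, at passage 10 on the vertical axis and passage 3 on the horizontal axis. The solid line marks equal enrichment and the dashed lines a change of 1 either way. Nuclear lncRNAs and the CLK, cyclin L, LUC7 and SR genes lie mostly below the main cloud, while giant linkers stay at its upper end and ribosomal protein genes at its lower end.

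The largest loss was that of Malat1, a nuclear long non-coding RNA (lncRNA) of splicing speckles. It had 125 CPM in the Thoc5 precipitate and 219.7 CPM in the input at passage 10, against 1462 and 50.6 CPM at passage 3. Malat1 was therefore more than an order of magnitude less abundant in the precipitate at passage 10 while more abundant in the input, and its enrichment was -0.82 at passage 10 against 4.84 at passage 3, a change of -5.66 (95% counting interval -5.77 to -5.54). It was the most enriched of all 8416 genes at passage 3 and stood at percentile 5.55 at passage 10.

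Meg3, an imprinted nuclear lncRNA expressed from the maternal chromosome, followed. Its level was 47.9 CPM in the Thoc5 precipitate and 36.03 CPM in the input at passage 10, against 603 and 24.9 CPM at passage 3, which gave a change of -4.16 (-4.36 to -3.96) and percentile 73.1 at passage 10 against 99.99 at passage 3. Rian, a lncRNA of the same imprinted cluster that hosts small nucleolar RNAs, had 41.8 CPM in the Thoc5 precipitate and 34.4 CPM in the input at passage 10, against 197 and 51.4 CPM at passage 3, a change of -1.65 (-1.86 to -1.44). Both were lower in the precipitate of passage 10, while the input was higher for Meg3 and lower for Rian. The spans of Meg3 and Rian overlap that of Rtl1, and Rian also that of AF357359, so their reads are uncertain.

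Neat1, the lncRNA that scaffolds paraspeckles, had 204 CPM in the Thoc5 precipitate and 169 CPM in the input at passage 10, against 695 and 148 CPM at passage 3, and its enrichment was 0.27 at passage 10 and 2.23 at passage 3 (change -1.96, -2.06 to -1.86). Firre, an X-linked lncRNA that organises chromosome contacts, behaved differently in rank. It had 37.4 CPM in the Thoc5 precipitate and 6.62 CPM in the input at passage 10, against 74.8 and 3.44 CPM at passage 3, a change of -1.84 (-2.25 to -1.43), yet stayed at percentile 99.96 at passage 10, against 99.98 at passage 3. With 3.44 CPM in the input of passage 3, Firre could enter only when enriched there. Pvt1, the host transcript of several miRNAs beside Myc, had 10.04 CPM in the Thoc5 precipitate and 23.1 CPM in the input at passage 10, against 28.6 and 23.7 CPM at passage 3, and changed by -1.43 (-1.83 to -1.03). Tug1, a lncRNA found in nucleus and cytoplasm, changed by -0.40, and Peg13, an imprinted lncRNA whose span overlaps Trappc9, by -0.01 with an interval of -0.33 to 0.32 that holds 0. Of the 24 nuclear lncRNAs listed for this description, 8 passed the read minimum. Of these, 6 (75%) were lost and none was gained, beside 10.7% and 2.07% of all genes. Their median was -1.75 beside -0.15 for all genes. Below the minimum, the listed Airn, Dleu2 and H19 changed by 1.57, 0.95 and 0.57, and Kcnq1ot1, Ftx and Mirg by -3.47, -2.25 and -1.66. That none was gained thus holds only above the minimum. The median percentile of the 8 members was 64.4 at passage 10 against 96.4 at passage 3. Across all 41 members annotated as lncRNA, 12 were lost and none was gained, with a median of -0.52.

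Transcripts of the splicing machinery's own regulators formed another group whose rank was lower at passage 10. The list held CLK kinases, which phosphorylate SR proteins, members of the cyclin L and LUC7 families, and SR and related splicing factors. It also held Ogt and Mgea5, which encode O-GlcNAc enzymes and not splicing factors. Many of the listed genes are known to keep introns in nuclear transcripts. Of the 34 members of the list, 16 (47.1%) were lost and none was gained, beside 10.7% and 2.07% of all genes. The members had a median change of -0.82, beside -0.15 for all genes. Their median percentile was 32.5 at passage 10 against 74.1 at passage 3, and 30 of 34 moved down. In the precipitate, 30 of the 34 had less CPM at passage 10, while 18 of 34 had less in the input, with medians of -0.92 and -0.34 on the log2 scale. These RNAs thus stood above input for 14 genes at passage 10 and for 27 at passage 3.

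Ccnl2, a cyclin that activates splicing-associated kinases, had 23.8 CPM in the Thoc5 precipitate and 21.01 CPM in the input at passage 10, against 316 and 36.9 CPM at passage 3. The precipitate was over 10-fold apart between passages while the input was under 2-fold apart, and the change was -2.90 (-3.16 to -2.65). Its relative Ccnl1 had 16.02 CPM in the Thoc5 precipitate and 19.5 CPM in the input at passage 10, against 146 and 49.3 CPM at passage 3, a change of -1.83 (-2.13 to -1.53). Srsf11, an SR-related protein, had 63.7 CPM in the Thoc5 precipitate and 76.3 CPM in the input at passage 10, against 307 and 55.8 CPM at passage 3, and changed by -2.71 (-2.87 to -2.54) to stand below the input at passage 10. Ogt, the enzyme that attaches O-GlcNAc to nuclear and cytoplasmic proteins and whose transcript has a well-known detained intron, had 77.1 CPM in the Thoc5 precipitate and 41.1 CPM in the input at passage 10, against 377 and 37.3 CPM at passage 3, and changed by -2.42 (-2.59 to -2.24).

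The CLK kinases were not alike. Clk1 had 14.3 CPM in the Thoc5 precipitate and 22.2 CPM in the input at passage 10, against 112 and 42.7 CPM at passage 3, a change of -2.00 (-2.31 to -1.69), and Clk2 changed by -1.96 (-2.24 to -1.67). Clk4 changed by -0.80 (-1.17 to -0.43) and Clk3 by -0.31 (-0.51 to -0.11), both inside the 2-fold limit. Among speckle and spliceosome components, Son changed by -1.71, Srrm2 by -1.66, Rbm5 by -1.71, Rbm39 by -1.39 and Snrnp70, the U1-specific protein, by -1.06. Srrm2, a scaffold of speckles, still ranked at percentile 99.2 at passage 10. The spans of Son and Srrm2 overlap those of Donson and Tceb2, so their reads are uncertain. At the other end of the list, the SR proteins Srsf2 and Srsf6 changed by 0.21 and 0.26, the SR-related Tra2b by 0.03, and Mgea5, which removes O-GlcNAc, by 0.19. Ogt and Mgea5, which encode opposing enzymes, were thus at different ends of the list. The span of Srsf2 overlaps that of Mfsd11, so its reads are uncertain. Except for Ccnl2, Srsf11 and Srsf6, the genes of this list are named after their values were seen, and so are the lncRNAs other than Malat1, Meg3 and Peg13.

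**Figure D2:**
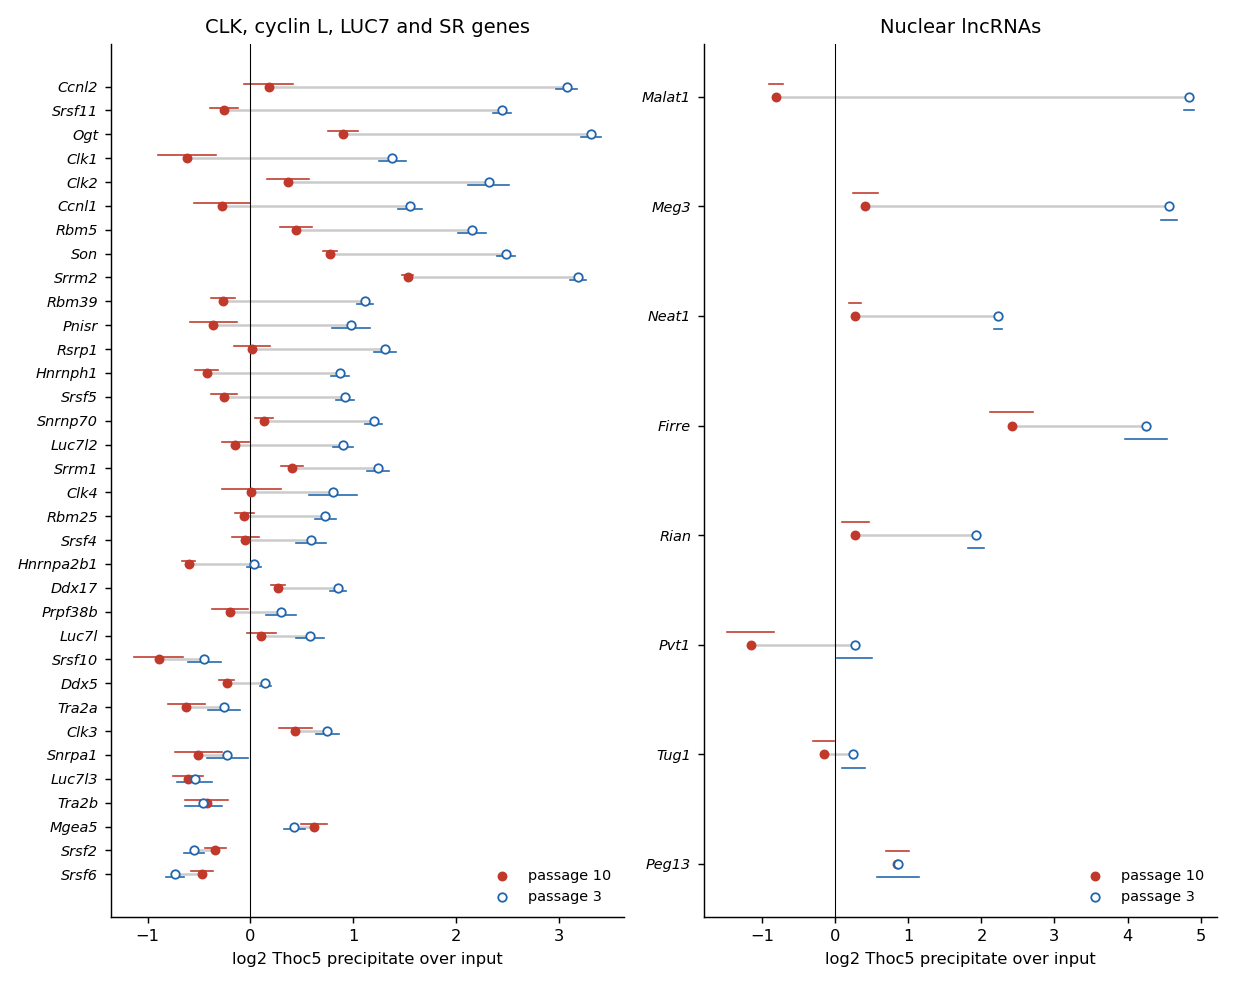
Thoc5 enrichment of every member of the splicing regulator list and of the nuclear lncRNA list, as the log2 ratio of Thoc5 precipitate to input CPM at passage 10 (filled) and passage 3 (open). The short horizontal lines are 95% counting intervals. Ccnl2, Srsf11, Malat1 and Meg3 are far apart between the passages, while Luc7l3, Tra2b and Peg13 coincide.

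Long transcripts of chromatin regulators and giant structural proteins had negative median changes and stayed near the top of the order. Of 61 members of the list of histone modifiers and chromatin remodellers, 14 (23.0%) were lost and none was gained, beside 10.7% and 2.07% of all genes. Their median change was -0.59, which became 0.24 when the enrichments of both passages were given equal median and SD, a setting chosen after seeing the data. All 61 stood above input at passage 10, and their median percentile was 94.8 at passage 10 against 91.2 at passage 3. Unlike the splicing regulators, their median precipitate CPM was higher at passage 10, by 0.35 on the log2 scale, and their median input CPM was higher by 1.03.

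Crebbp, a histone acetyltransferase, had 108 CPM in the Thoc5 precipitate and 44.5 CPM in the input at passage 10, against 38.3 and 3.52 CPM at passage 3, a change of -2.00 (-2.34 to -1.66). Its precipitate level was higher at passage 10, and its input level was higher by more. With 3.52 CPM in the input of passage 3, Crebbp could enter only when enriched there, since the minimum equals 8.37 CPM in that precipitate. Ep300, the paralogous acetyltransferase, had 109 CPM in the Thoc5 precipitate and 46.7 CPM in the input at passage 10, against 63.9 and 47.1 CPM at passage 3, and changed by 0.78 (0.58 to 0.99), the highest value of the list. The input of Ep300 was nearly level between passages, so that both paralogues had about the same enrichment at passage 10, 1.27 and 1.22, but not at passage 3, 3.27 and 0.44.

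Among giant linkers of the cytoskeleton and nuclear envelope, 8 of 37 members (21.6%) were lost and none was gained, beside 10.7% and 2.07% of all genes. Their median change was -0.61, or 0.47 with equal median and SD. Their median percentile was 98.8 at passage 10 and 96.2 at passage 3, and 33 of 37 moved up in rank. Nbeal2, a large scaffold protein needed for platelet granules, had the lowest change of the list, -1.87 (-2.50 to -1.23), with 12.6 CPM in the Thoc5 precipitate and 3.89 CPM in the input at passage 10, against 19.9 and 1.38 CPM at passage 3. It had exactly 50 reads in the input of passage 3, and is therefore also a gene just inside the read minimum. With 1.38 CPM in that input, Nbeal2 could enter only when enriched at passage 3. Sptbn1, a beta-spectrin, had the highest, 0.50 (0.41 to 0.58), with 459.8 CPM in the Thoc5 precipitate and 203 CPM in the input at passage 10, against 568 and 354 CPM at passage 3. For the 36 genes whose lowest library held exactly 50 reads, the change ran from -1.87 to 1.53 with a median of 0.04, and for 50 genes at 49 reads with a value in all 4 libraries it ran from -2.36 to 1.64 with a median of -0.15. Alkbh4, a demethylase homologue just outside with 49 reads in the Thoc5 precipitate of passage 3, changed by -0.51.

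**Figure D3:**
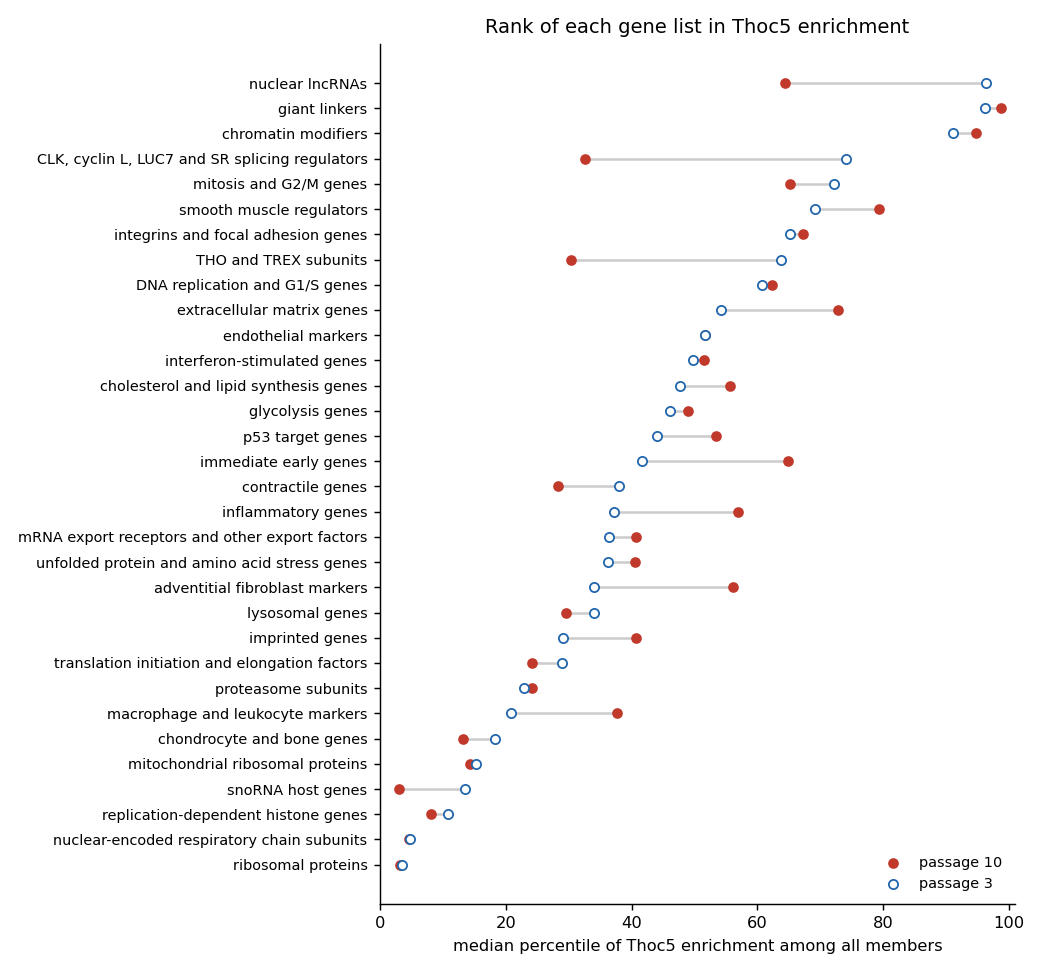
Median percentile of Thoc5 enrichment among the 8416 genes for each gene list with at least 3 members, at passage 10 (filled) and passage 3 (open), where 100 is the most enriched. The splicing regulators stood at 32.5 at passage 10 against 74.1 at passage 3 and the THO and TREX genes at 30.4 at passage 10 against 63.7 at passage 3, while giant linkers and ribosomal proteins kept the ends of the order.

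Short, abundant mRNAs moved the other way and remained at the bottom of the order. Of 82 cytosolic ribosomal protein genes, 4 (4.88%) were gained and none was lost, beside 2.07% and 10.7% of all genes. Of the 82, 77 had a change above 0, and the median was 0.46, or -0.09 with equal median and SD. Their median enrichment was -0.98 at passage 10 and -1.40 at passage 3, and their median percentile was 3.18 and 3.55. Rpl38, of the large subunit, had 131 CPM in the Thoc5 precipitate and 294 CPM in the input at passage 10, against 41.3 and 244 CPM at passage 3, a change of 1.38 (1.18 to 1.58). The lowest was Rpl3, also of the large subunit, at -0.47 (-0.57 to -0.38), whose span overlaps Snord83b and whose reads are uncertain. Ribosomal protein genes have processed pseudogenes, so that counts can be split between copies.

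Of 74 nuclear-encoded respiratory chain genes, 7 (9.46%) were gained and none was lost, beside 2.07% and 10.7% of all genes. Their median was 0.35, or -0.02 with equal median and SD. Ndufc1, a complex I subunit, had 23.8 CPM in the Thoc5 precipitate and 58.8 CPM in the input at passage 10, against 9.20 and 79.3 CPM at passage 3, a change of 1.75 (1.32 to 2.19), and Uqcrb, a complex III subunit, had 19.5 CPM in the Thoc5 precipitate and 49.2 CPM in the input at passage 10, against 13.1 and 109.9 CPM at passage 3, a change of 1.72 (1.32 to 2.11). Both stayed more than 2-fold below the input at passage 10. Among 68 mitochondrial ribosomal protein genes, 3 were gained and 1 was lost, Mrpl32 being the highest at 1.61 and Mrps9 the lowest at -1.05, with a median of 0.09. The 3 replication-dependent histone genes that passed had a median of 0.69, and Hist1h2bc was gained at 1.02. Near-identical histone copies make that count uncertain.

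Other genes at the upper end of the change had varied known functions, and for several the reads may be shared with a neighbour. Zbtb33, which encodes the methyl-CpG binding repressor Kaiso, had 18.2 CPM in the Thoc5 precipitate and 9.30 CPM in the input at passage 10, against 14.4 and 44.3 CPM at passage 3. It was above its input at passage 10 and below it at passage 3, with the highest change of all, 2.52 (2.08 to 2.95). Slc25a32, the mitochondrial folate carrier, had 14.6 CPM in the Thoc5 precipitate and 10.5 CPM in the input at passage 10, against 12.7 and 36.8 CPM at passage 3, a change of 1.96 (1.50 to 2.41), again with the precipitate nearly level and the input lower at passage 10. Dr1, a repressor of the TATA-binding protein, changed by 1.79 (1.42 to 2.16), Dmxl1, a regulator of vacuolar proton pump assembly, by 1.69 (1.24 to 2.15), and Scp2, a sterol carrier, by 1.69 (1.37 to 2.02). The remaining genes of the upper 15 were Cand2 at 2.32, Rpe at 2.05, Agbl5 at 1.97, Map3k12 at 1.76, the mitochondrially encoded ND6 at 1.74, Mylk, S100a1 at 1.66 and the members of the lists above. Zbtb33, Cand2, Rpe, Agbl5, Map3k12, ND6, Mylk and S100a1 overlap other counted genes (Tmem255a, Rpl32, Kansl1l, Ost4, Pcbp2 with Tarbp2, ND5, E130310I04Rik and S100a13), so their reads are uncertain. All members overlapping another counted gene numbered 1840 (21.9%), with 23.4% of the lost and 21.8% of the gained genes.

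At the lower end, 3 counted genes without a RefSeq symbol lay among the lowest and are not named. Uba7, the activating enzyme of the interferon-induced modifier ISG15, had 6.30 CPM in the Thoc5 precipitate and 8.61 CPM in the input at passage 10, against 112 and 17.2 CPM at passage 3. It was less abundant in both libraries of passage 10, and its change was -3.09 (-3.55 to -2.64). Echdc2, of the enoyl-CoA hydratase family, had 26.3 CPM in the Thoc5 precipitate and 40.8 CPM in the input at passage 10, against 37.5 and 7.13 CPM at passage 3, a change of -2.94 (-3.27 to -2.61). Here the input was several-fold higher at passage 10 while the precipitate was lower. Srek1, an SR-related splicing protein, changed by -2.85 (-3.09 to -2.61), and Zcchc11, which adds uridines to RNA ends, by -2.75 (-3.15 to -2.35). Supt20, a subunit of the SAGA coactivator whose span overlaps Exosc8, changed by -2.71, Paxbp1, whose span overlaps 4930404I05Rik, by -2.53, Cntrob, a centriole protein, by -2.49, Abcd4, a lysosomal cobalamin transporter, by -2.43, the pseudogene Pisd-ps2 by -2.84, and Ankrd24, an ankyrin repeat gene, by -2.80. Echdc2, Zcchc11, Supt20, Cntrob, Abcd4, Pisd-ps2 and Ankrd24 had 2.01 to 7.13 CPM in the input of passage 3. The minimum needs 8.37 CPM in the precipitate of passage 3, so these genes could enter only when enriched there. Lars2, the mitochondrial leucyl-tRNA synthetase, changed by -2.47, beside -2.24 for the 28S ribosomal RNA gene Rn28s1 and -1.63 for Rn18s, and the relation between Lars2 reads and ribosomal RNA was not tested.

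**Figure D4:**
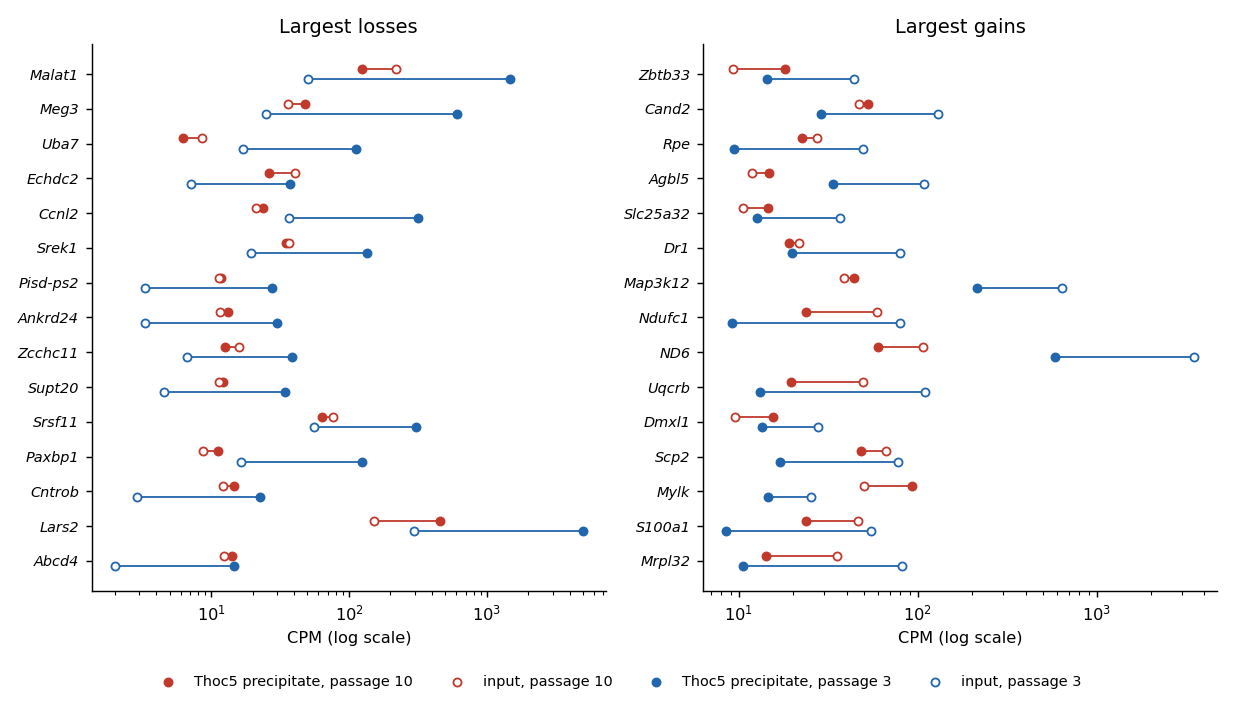
CPM on a log scale of the 15 genes with the lowest and the 15 with the highest change among those with a RefSeq symbol, in the Thoc5 precipitate (filled) and the input (open) at passage 10 (upper line of each gene) and passage 3 (lower line). Among the losses the precipitate exceeds the input at passage 3, and both are closer at passage 10, as for Malat1 with 124.5 and 219.7 CPM at passage 10. Among the gains the input exceeds the precipitate at passage 3.

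A minority of transcripts of the THO complex and its partners was lost. Of 14 members of the THO and TREX list, 4 (28.6%) were lost and none was gained, beside 10.7% and 2.07% of all genes. The list had a median change of -0.46 and a median percentile of 30.4 at passage 10 against 63.7 at passage 3. Without genes whose spans overlap another counted gene, the median was -0.21, beside -0.13 for all such genes. Thoc1, a core subunit, had 15.4 CPM in the Thoc5 precipitate and 23.1 CPM in the input at passage 10, against 93.4 and 46.9 CPM at passage 3, a change of -1.56 (-1.86 to -1.25). Thoc2, the scaffold subunit, had 53.4 CPM in the Thoc5 precipitate and 60.6 CPM in the input at passage 10, against 77.1 and 32.0 CPM at passage 3, a change of -1.44 (-1.65 to -1.22). Thoc2 RNA was thus less abundant in the precipitate and more abundant in the input at passage 10. Thoc6 changed by -1.21 (-1.57 to -0.85) and Ddx39b, the helicase of TREX, by -1.09 (-1.21 to -0.97).

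Inside the 2-fold limit were Zc3h11a at -0.94, Ddx39 at -0.82, Erh at -0.60, Sarnp at -0.23, Poldip3 at -0.20, Chtop at -0.17, the adaptor Alyref at -0.13, Thoc3 at 0.20 and Thoc7 at 0.51. Thoc5 RNA had 64.8 CPM in the Thoc5 precipitate and 45.0 CPM in the input at passage 10, against 55.7 and 30.9 CPM at passage 3, so that it was above input at both passages and its change of -0.32 (-0.55 to -0.09) was close to the median of all genes. The intervals of Sarnp, Chtop, Alyref and Thoc3 hold 0. Spans of Thoc1, Thoc6, Thoc7, Zc3h11a, Ddx39 and Erh overlap other counted genes, among them Usp14, Hcfc1r1 and Atxn7, so these reads are uncertain. Of 20 other export factors, 2 were lost and 1 was gained, with a median of -0.11 that TMM scaling turned to 0.05. The lowest was Nxf1, the export receptor, with 58.3 CPM in the Thoc5 precipitate and 46.6 CPM in the input at passage 10, against 188 and 57.0 CPM at passage 3, a change of -1.39 (-1.58 to -1.20). Nxf1 was thus about 3-fold lower in the precipitate of passage 10 and closer to level in the input. Cetn3, a centrin that is also part of the TREX-2 complex, was the highest at 1.25 (0.85 to 1.64).

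Contractile genes of smooth muscle had a median change near that of all genes, while most were lower in rank at passage 10. Of 23 members, 1 (4.35%) was gained and 2 (8.70%) were lost, beside 2.07% and 10.7% of all genes, with a median of -0.18 beside -0.15. Their median percentile was 28.2 at passage 10 against 38.0 at passage 3, and 17 moved down while 6 moved up. Mylk, myosin light chain kinase, was the gained gene, with 92.7 CPM in the Thoc5 precipitate and 50 CPM in the input at passage 10, against 14.6 and 25.3 CPM at passage 3. It was higher in both libraries of passage 10, but more so in the precipitate, and its change was 1.66 (1.32 to 2.01). Ppp1r12a, the targeting subunit of the opposing myosin phosphatase, had 116 CPM in the Thoc5 precipitate and 100.4 CPM in the input at passage 10, against 40.7 and 9.30 CPM at passage 3, a change of -1.86 (-2.12 to -1.60). Flna, the actin crosslinker filamin A, had 3243 CPM in the Thoc5 precipitate and 1489 CPM in the input at passage 10, against 3853 and 803 CPM at passage 3, a change of -1.14 (-1.17 to -1.11), and remained at percentile 96.6.

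The classical markers Acta2, Tagln and Cnn1 stood below their input at both passages, and their changes were small. Their log2 enrichment at passage 10 and passage 3 was -0.54 and -0.43 for Acta2, -0.28 and -0.21 for Tagln, and -0.43 and -0.35 for Cnn1. Their percentiles were 12.8 and 23.1 for Acta2, 25.9 and 30.8 for Tagln, and 17.8 and 25.3 for Cnn1. Acta2, smooth muscle actin, had 3127 CPM in the Thoc5 precipitate and 4549 CPM in the input at passage 10, against 1557 and 2091 CPM at passage 3, a change of -0.12 (-0.15 to -0.08). Tagln, an actin-binding protein, had 1119.7 CPM in the Thoc5 precipitate and 1359 CPM in the input at passage 10, against 1901 and 2194 CPM at passage 3, a change of -0.07 (-0.12 to -0.03), and its span overlaps Pcsk7. Cnn1, calponin, changed by -0.08 (-0.26 to 0.10) and Lmod1, an actin nucleator, by -0.30. Lower values belonged to Pdlim7 at -0.89, Smtn at -0.87, Tpm1 at -0.52, Csrp1 at -0.41 and Tpm2, whose span overlaps Car9, at -0.39, and the highest after Mylk was Mustn1 at 0.85 (0.49 to 1.21). Of the other contractile members, Actn1, Cald1, Vim, Cnn2, Vcl, Actg2, Aoc3, Myl6 and Myl9, lay between -0.25 and 0.18. Smooth muscle myosin heavy chain, Myh11, had 42 reads in the precipitate of passage 10 and 45 at passage 3 and did not enter. Of the 35 genes on the list, 12 did not enter.

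**Figure D5:**
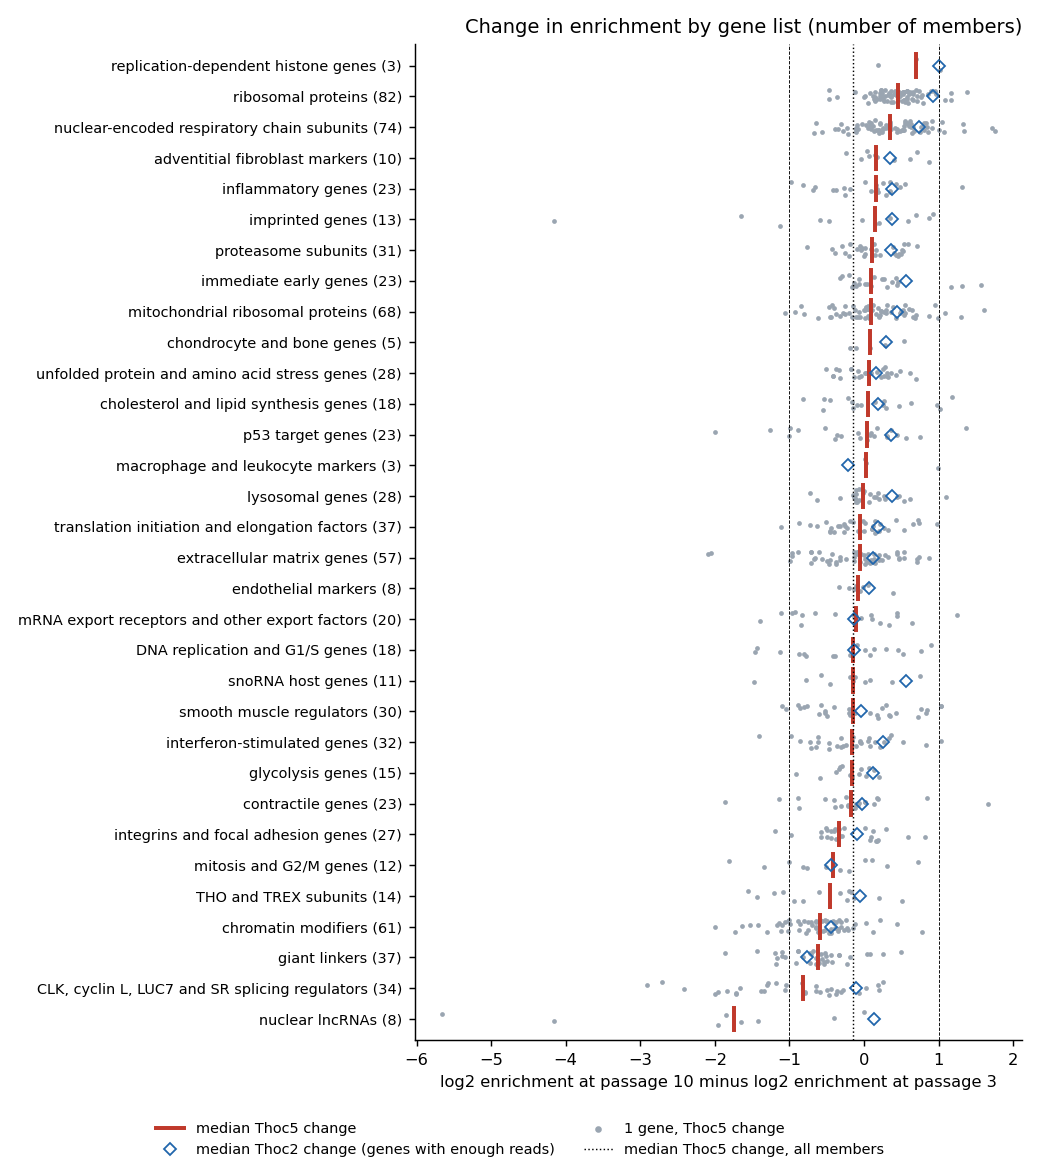
Change in Thoc5 enrichment (log2 at passage 10 minus log2 at passage 3) by gene list, with 1 point per gene, the list median as a bar, and the median Thoc2 change over members with at least 50 reads in the Thoc2 libraries as a diamond. The dotted line is the median of all genes at -0.15 and the dashed lines mark -1 and 1. The bar and the diamond lie apart for nuclear lncRNAs and splicing regulators, and close together for giant linkers.

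Of the remaining lists, extracellular matrix genes had a median of -0.06 with 2 of 57 lost and none gained, beside 10.7% and 2.07% of all genes. Col7a1, an anchoring fibril collagen, whose span overlaps Mir711, was the lowest at -2.10 (-2.44 to -1.75) and Dcn, the proteoglycan decorin, the highest at 0.87 (0.52 to 1.22). With 6.11 CPM in the input of passage 3, Col7a1 could enter only when enriched there. Smooth muscle regulators had a median of -0.15, with the receptor Notch3 lowest at -1.10 and its ligand Jag1 highest at 1.03. Immediate early genes, a class known to need Thoc5 for export in other mouse cells, had 3 of 23 gained and none lost, with a median of 0.09. Zfp36l1, which destabilises AU-rich mRNAs, had 86.7 CPM in the Thoc5 precipitate and 85.4 CPM in the input at passage 10, against 16.1 and 47.6 CPM at passage 3, a change of 1.56 (1.24 to 1.88), and Ier2 was the lowest of that list at -0.33. TMM scaling turned the extracellular matrix and smooth muscle regulator medians to 0.10 and 0.00.

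Proliferation genes entered less often, since their reads were fewer. The shares over all genes, to be read beside the counts that follow, were 10.7% lost and 2.07% gained. Mitosis genes had 3 of 12 members lost and none gained, with a median of -0.42 that became 0.11 with a minimum of 200 reads and -0.77 without overlapping genes, Smc4, a condensin subunit, lowest at -1.81 and Tpx2, a spindle assembly factor, highest at 0.73. Replication genes had 3 of 18 lost, with a median of -0.14 that was 0.00 with TMM scaling, 0.05 without overlapping genes and -0.78 with a minimum of 200 reads, the clamp loader Rfc5 lowest at -1.46 and the sliding clamp Pcna highest at 0.89. Among p53 targets, 3 of 23 were lost and 1 was gained, with a median of 0.04, Sesn1 lowest at -2.00 and Eda2r highest at 1.37. Rfc5 and Sesn1 had 3.96 and 2.78 CPM in the input of passage 3. The minimum equals 8.37 CPM in that precipitate, so both could enter only when enriched there. Inflammatory genes had a median of 0.16 with 1 of 23 gained. That gene was Ptgs2, cyclooxygenase 2, with 26.1 CPM in the Thoc5 precipitate and 20.1 CPM in the input at passage 10, against 841 and 1626 CPM at passage 3, a change of 1.32 (1.08 to 1.55) against a more than 50-fold difference in input.

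Interferon-stimulated genes, whose input CPM had a median log2 difference of -2.47 between passage 10 and passage 3, had a median change in enrichment of -0.16. Of 32 members, 1 was lost, Stat2 at -1.40, and 1 was gained, Usp18 at 1.03. Cholesterol synthesis genes moved in the other direction in the input, by a median of 1.67, with a median change in enrichment of 0.06 that was -0.46 with a minimum of 200 reads and 0.26 without overlapping genes. The snoRNA host Snhg5 was lost at -1.47 (-1.80 to -1.14), and Snhg6, which overlaps Snord87, changed by 0.75, in a list with 1 of 11 lost and a median of -0.14 that was 0.02 with TMM scaling and -0.52 with a minimum of 200 reads. No member was lost or gained among 28 unfolded protein and amino acid stress genes, 31 proteasome genes or 15 glycolysis genes, with medians of 0.07, 0.10 and -0.16. Over all genes 10.7% were lost and 2.07% gained, so in lists this small these counts say little.

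In 5 equal bins of gene length, the median change was 0.07 for genes of 98 to 1707 bases, -0.13, -0.20 and -0.25 for the next bins, and -0.28 for genes of 4970 to 23242 bases. Length was known for 8335 genes. Binned by input CPM at passage 3, the share of lost genes was 29.6% in the lowest bin, up to 14.01 CPM, and 1.61% in the highest, from 97.7 CPM. Gained genes made up 0.178% of the lowest and 3.15% of the highest bin. Input CPM at passage 3 is part of the change, and the read minimum equals 8.37 CPM in the Thoc5 precipitate of passage 3 but 1.38 CPM in its input. Genes of low input therefore entered only with high enrichment at passage 3, and nothing is read from these shares. The longest bin had a median percentile of 82.3 at passage 10 and 73.8 at passage 3.

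The Thoc2 precipitates gave the same quantity for a second THO subunit in 7615 of the genes. Both measures share the input libraries, so they are set side by side. Over these genes the Thoc5 change was -1 or less in 750 (9.85%) and the Thoc2 change in 253 (3.32%), while 160 were gained with Thoc5 and 352 (4.62%) with Thoc2. The direct ratio of the precipitates, which uses no input, was at least 2-fold lower at passage 10 in 634 genes (8.33%) and at least 2-fold higher in 112 (1.47%), with a median of -0.28, and it was below 0 in 5416 genes (71.1%). The part of the unequal ribosomal RNA shares of the Thoc2 precipitates in these values was not tested.

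The medians of nuclear lncRNAs and splicing regulators lay apart between the antibodies. For the 8 lncRNAs the median change was -1.75 with Thoc5 and 0.14 with Thoc2, and all 8 were lower at passage 10 in the ratio of Thoc5 to Thoc2, with a median of -1.60 beside -0.28 for all genes. Firre changed by -1.84 with Thoc5 and 1.31 with Thoc2, Neat1 by -1.96 and 0.49, and Meg3 by -4.16 and -0.75. Malat1 was far lower at passage 10 with either antibody, with changes of -5.66 and -4.91. For the 34 splicing regulators the medians were -0.82 with Thoc5 and -0.11 with Thoc2, and 31 of 34 were lower in the ratio, with a median of -0.85. Ogt changed by -2.42 with Thoc5 and 0.24 with Thoc2, and Ccnl2 by -2.90 and -0.46. Of the 12 THO and TREX genes with enough Thoc2 reads, all 12 were lower in the ratio, as were 11 of 11 snoRNA hosts, 25 of 28 lysosomal genes and 26 of 31 proteasome genes. Over all 7615 genes 71.1% were lower, so a majority of lower members was general and not particular to these lists. The THO and TREX median change was -0.57 with Thoc5 and -0.06 with Thoc2.

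The long transcripts that kept their rank had negative medians with either antibody. For giant linkers the medians were -0.61 with Thoc5 and -0.77 with Thoc2, with 13 of 37 lower in the ratio. Chromatin regulators had -0.59 and -0.44, and Crebbp itself changed by -2.00 and -3.12. Ribosomal protein genes had higher enrichment at passage 10 with both, by medians of 0.45 and 0.93 over 80 genes, and respiratory chain genes by 0.35 and 0.74 over 71. In the ratio of Thoc5 to Thoc2 both lists were lower at passage 10, with medians of -0.47 (71 of 80 genes lower) and -0.37 (56 of 71 lower). Over all genes the median was -0.28, with 71.1% lower. Mylk changed by 1.66 with Thoc5 and 2.25 with Thoc2, and Zbtb33 by 2.52 and 1.36.

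The authors' deposited tables list genes enriched with Thoc5 separately at each passage, 560 at passage 10 and 919 at passage 3. The authors' deposited lists shared 180 genes, 32.1% of the list of passage 10 and 19.6% of that of passage 3. Most genes of the authors' deposited lists had too few reads to enter here, with 225 members in the list of passage 10 and 249 in that of passage 3. Of the 249, 212 were lost, and of the 225, 53 were lost and 2 were gained. These lists come from the same libraries and are no independent evidence of the change.

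RNA levels after silencing of Thoc5 came from libraries that the choice of genes did not use, and asked whether genes that lost or gained enrichment depend on Thoc5 for their level. Thoc5 itself stood at 7.37 and 5.75 CPM in the shThoc5 libraries and at 33.5 and 38.9 CPM in the shNT libraries, a log2 fold change of -2.51 with an adjusted p of 0.499 by edgeR's quasi-likelihood test and of 6.56e-15 by DESeq2. The quasi-likelihood test called no gene among 13569 (0%) and so none of the 8393 tested members, although 651 genes, 468 of them members, had an unadjusted p below 0.05. DESeq2 called 48 of 10387 genes (0.462%), among them 43 members, of which 3 were lost and none was gained. Nothing in the labels says that libraries of a group came from separate cultures, so these p-values measure the spread between the libraries. The median log2 fold change after silencing was 0.05 for the lost, -0.02 for the gained and 0.00 for all members. Of 897 lost genes tested, 551 were higher and 346 lower in shThoc5, and of 173 gained genes, 79 were higher and 94 lower. By medians, splicing regulators stood at 0.07 and nuclear lncRNAs at 0.08, while contractile genes stood at -0.15. Immediate early genes had a median of 0.34, unfolded protein and amino acid stress genes of -0.27 and cholesterol synthesis genes of -0.28. The lost genes that DESeq2 called were 4930402H24Rik and Ogdhl, higher in shThoc5 by 0.75 and 1.78 on the log2 scale, and Vangl1, a planar polarity protein, with -1.26. They were named after their values were seen.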

How the data were processed

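RNA immunoprecipitation and RNA-seq libraries of mouse aortic smooth muscle cells were used. The deposited count tables hold whole reads per gene, and the submitters' processing notes name bcl2fastq, Subread, featureCounts and the build mm9 without saying which step made which table. Whether the count used strand is not stated. The deposited tables of Thoc5-enriched genes hold a score, the authors' class probability of a 2-class mixture per the file headers, and were used as lists of genes. Gene lengths are those deposited with the RNA-seq comparison.

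From the counts, CPM used all reads of a table, with 0.5 CPM added, and intervals were computed from the reads of the 4 libraries. Reads without molecular identifiers are not independent molecules, so intervals cover counting error only. RefSeq annotation of GRCm38.p6 served only for names (8348 members matched) and for genes with overlapping spans. The shThoc5 libraries were compared with edgeR 4.0.16 (quasi-likelihood, TMM, filterByExpr, Benjamini-Hochberg), with DESeq2 1.42.0 and limma-voom 3.58.1 as alternatives, in R 4.3.3. Other alternatives were the added CPM, the read minimum, the scaling, overlapping genes, the reference library and, chosen after seeing the data, equal spread. The pipeline was tested on simulated data. Named genes are the 15 highest and 15 lowest changes with a RefSeq symbol and an interval clear of 0, the highest and lowest member of each list, all THO, TREX and contractile members, and a gene either side of the minimum. A few genes that this rule names are not reported here. The members and lists were chosen with earlier results of these data known.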

Additional observations from a re-analysis of the deposited data

Results flagged for a closer look

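Among the 15 genes of each end of the change that have a RefSeq symbol, 30 in all, 11 stood above the input at one passage and below it at the other, with both counting intervals clear of 0, and this change of side is why they are given here. With 1 library per antibody and passage the difference between passages was not tested. Over all 8416 genes, 361 (4.29%) were above the input at passage 3 and below it at passage 10, and 161 (1.91%) were the reverse.

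Below the input at passage 10 and above it at passage 3 were Malat1, a speckle lncRNA (change -5.66, with 1166 reads in the precipitate of passage 10 and 8737 in that of passage 3), Echdc2 (-2.94), Zcchc11, an RNA uridylyltransferase (-2.75), and Srsf11, an SR-related protein (-2.71). Above the input at passage 10 and below it at passage 3 were Zbtb33, the repressor Kaiso (2.52), Cand2 (2.32), Agbl5 (1.97), Slc25a32, the mitochondrial folate carrier (1.96), Map3k12 (1.76), Dmxl1 (1.69) and Mylk, the myosin light chain kinase (1.66).

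Of the 7 that were above input at passage 10, Zbtb33, Cand2, Agbl5, Map3k12 and Mylk overlap other counted genes, and the part of these neighbours in the change was not tested. Slc25a32 and Dmxl1 overlap none.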

How the results depend on the processing

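The number of lost genes lay between 634 and 1187 under all settings except a minimum of 200 reads (420, of 4565 genes) and equal spread (547), beside 898 as reported. The number of gained genes, 174 as reported, was 294 with a minimum of 20 reads, 40 with 200 reads, 312 with TMM scaling, 300 with the median of all genes set to 0, 112 with the Thoc2 precipitate as reference and 424 with equal spread. Of the genes lost and gained with Thoc2 as reference, 330 of 634 and 10 of 112 were also lost and gained as reported, and with equal spread 447 of 547 and 116 of 424 were. With the median set to 0, 646 genes were lost. The median of all genes moved by 0.15 with either of these scalings and by -0.13 with Thoc2 as reference. Equal spread, chosen after seeing the data, gave splicing regulators -0.76, nuclear lncRNAs -1.47 and THO and TREX genes -0.53, all still negative. With Thoc2 as reference, 30 of 109 named genes and 14 of 32 list medians took the other sign. Of the 30 genes, 20 were neither lost nor gained, and the others were Lars2 (2.87), Crebbp (1.12), Ppp1r12a (0.38), Cand2 (-1.16), Map3k12 (-1.12), Agbl5 (-0.88), Mylk (-0.59), Jag1 (-0.42), Hist1h2bc (-0.36) and Ptgs2 (-0.088), and the cause was not tested.

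For shThoc5 against shNT, members called numbered 0 as reported, 1 without the low count filter, 43 with DESeq2 and 0 to 39 when each library was left out, the 39 coming without shThoc5 replicate 1. With the replicate number as a block, 391 members were called, 16 of them lost and 6 gained. Same-numbered libraries deviated together (correlation 0.635 across genes), but the labels state no pairing and there are only 2 pairs. The macrophage list had no value at 200 reads. Depth limits low genes most: the median counting SE of a change was 0.137, and 46.4% of lost and 27.6% of gained genes had their whole interval past the limit.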

Other observations

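Among lncRNAs below the read minimum, H19, an imprinted transcript that is abundant in fetal tissue, had 11185 reads in the Thoc5 precipitate and 29091 in the input at passage 10, against 17 and 213 reads at passage 3. Its enrichment was -0.36 at passage 10 and -0.93 at passage 3, so that a large difference in abundance went with a precipitate below input at both passages. Kcnq1ot1, a nuclear antisense lncRNA that silences its imprinted domain, had 17 and 21 reads at passage 10, against 92 and 18 at passage 3, with an enrichment of 0.53 at passage 10 and 4.00 at passage 3. Both genes were named after their values were seen, and neither entered a count of members above.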
